A study of Mus musculus with 18 samples.

Results

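The 13 genes described here are those of the deposited table whose symbols start with mt-, out of 34745 genes. All 13 lie on the mitochondrial genome and encode proteins of the oxidative phosphorylation chain. They are 7 subunits of complex I (mt-Nd1, mt-Nd2, mt-Nd3, mt-Nd4, mt-Nd4l, mt-Nd5 and mt-Nd6), the cytochrome b of complex III (mt-Cytb), 3 subunits of complex IV (mt-Co1, mt-Co2 and mt-Co3) and 2 subunits of complex V (mt-Atp6 and mt-Atp8). Ribosomal and transfer RNAs of the mitochondrion were not analysed here. All 13 genes passed the filter on low counts, and each had at least 145 counts in every library.

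The cells were mouse macrophages grown from bone marrow of the thigh bone with 20 ng/ml of macrophage colony-stimulating factor for 6 days and then given 100 ng/ml of lipopolysaccharide (LPS), a bacterial cell wall component, for 8 h. All groups received both agents. The genotypes were wild type (WT) and a knockout (KO) of Mkrn2, whose protein is a ubiquitin ligase that binds RNA. The strain, the age of the animals and the allele are not given in the sources used here. Polysome profiling, which separates RNA by the number of ribosomes it carries, gave a polysome and a monosome fraction, and total RNA came from whole lysate. Each of the 6 groups had 3 libraries, 18 in all, so that each RNA source had 6. The labels do not say whether replicates were separate cultures or animals, so p values measure the spread between libraries, which may be technical.

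Mitochondrial DNA is copied into long RNAs from both of its strands, and these are cut mostly at the transfer RNAs that lie between the genes. Most of the resulting mRNAs receive short poly(A) tails. All of the mRNAs are translated inside the organelle by mitochondrial ribosomes, not by the cytosolic ribosomes that polysome profiling is meant to sort. Neither mt-Atp8 nor mt-Nd4l has an mRNA of its own: each is the first reading frame of a shared mRNA, followed by mt-Atp6 and mt-Nd4. In macrophages, LPS is known to turn metabolism from oxidative phosphorylation towards glycolysis.

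Along the mitochondrial genome the first gene is mt-Nd1 (ENSMUSG00000064341, MT:2751-3707), followed by mt-Nd2 (ENSMUSG00000064345, MT:3914-4951), mt-Co1 (ENSMUSG00000064351, MT:5328-6872) and mt-Co2 (ENSMUSG00000064354, MT:7013-7696). Then come the overlapping genes mt-Atp8 (ENSMUSG00000064356, MT:7766-7969) and mt-Atp6 (ENSMUSG00000064357, MT:7927-8607), with mt-Co3 (ENSMUSG00000064358, MT:8607-9390) directly after them. The rest of the order holds mt-Nd3 (ENSMUSG00000064360, MT:9459-9806), mt-Nd4l (ENSMUSG00000065947, MT:9877-10173), mt-Nd4 (ENSMUSG00000064363, MT:10167-11544), mt-Nd5 (ENSMUSG00000064367, MT:11742-13565), mt-Nd6 (ENSMUSG00000064368, MT:13552-14070) and mt-Cytb (ENSMUSG00000064370, MT:14145-15288). All lie on the plus strand other than mt-Nd6.

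The neighbouring genes of those shared mRNAs overlap in sequence, and the overlaps are shown because the counts of the paired genes are compared below. The last 120 bases of mt-Atp8 (MT:7850-7969, plus strand) and the first 120 bases of mt-Atp6 (MT:7927-8046, plus strand) share 43 bases. The last 60 bases of mt-Nd4l (MT:10114-10173, plus strand) and the first 60 bases of mt-Nd4 (MT:10167-10226, plus strand) share 7. Capitals mark the shared bases. The sequences come from the GENCODE M21 transcripts of the GRCm38 build, in which all 13 genes have the positions that the deposited table gives.
mt-Atp8, end: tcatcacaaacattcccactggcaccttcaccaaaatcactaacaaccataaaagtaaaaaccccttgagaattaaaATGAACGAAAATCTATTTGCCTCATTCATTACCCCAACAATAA
mt-Atp6, start: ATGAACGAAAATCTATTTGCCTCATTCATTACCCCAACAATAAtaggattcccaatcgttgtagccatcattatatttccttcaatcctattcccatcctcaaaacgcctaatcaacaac
mt-Nd4l, end: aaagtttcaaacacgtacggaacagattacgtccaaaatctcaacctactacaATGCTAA
mt-Nd4, start: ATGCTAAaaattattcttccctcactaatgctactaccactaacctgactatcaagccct

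Of the 13 genes, 7 also have a copy on chromosome 1, inserted into nuclear DNA, and a stretch of 1 pair is shown because the counts of gene and copy are compared below. The copies lie side by side from 24611535 to 24616197 on the minus strand. In 6 of them there was no mismatch to the mitochondrial gene over the aligned bases, and Gm29216 had 1. Gm10222, Gm28438, Gm28437, Gm10925 and Gm28661 span 98.3% to 99.9% of mt-Nd4l, mt-Nd3, mt-Co3, mt-Atp6 and mt-Co2. Gm28439 covers bases 1 to 876 of the 1378 bases of mt-Nd4, and Gm29216 covers bases 1063 to 1545 of mt-Co1. Over the 120 bases shown, mt-Atp6 (MT:8206-8325, plus strand) and Gm10925 (chr1:24614253-24614372, minus strand) are identical, so a read from within them cannot be given to either. The split of reads between these 7 genes and their copies is therefore uncertain, and how it was made is not given in the sources used here.
mt-Atp6, middle: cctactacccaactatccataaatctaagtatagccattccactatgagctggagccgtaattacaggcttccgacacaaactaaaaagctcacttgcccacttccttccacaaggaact
Gm10925, middle: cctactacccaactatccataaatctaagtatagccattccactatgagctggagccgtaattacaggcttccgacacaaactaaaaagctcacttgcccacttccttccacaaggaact

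Total RNA libraries held 11402715 to 16711558 counts, polysome libraries 13006294 to 15759370 and monosome libraries 9190034 to 12606314. Mkrn2 RNA was still present in the libraries labelled KO, at a fold of 0.888, 0.901 and 0.772 against WT in the total, polysome and monosome source, with adjusted p of 0.855, 0.79 and 0.086 by edgeR's quasi-likelihood test. The labels were used as given, and every direction between genotypes below compares libraries labelled KO with libraries labelled WT. Summed macrophage markers stood at 6594 to 10790 scaled CPM (counts scaled by TMM and by library size) in every library. In 2 monosome libraries, WT replicate 1 and KO replicate 2, the count of mt-Atp6 stood far below that of the other 4, and the values of mt-Atp6, of ratios to it and of the mitochondrial pool in monosome RNA are given with and without both.

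In WT total RNA, mt-Co1, the catalytic core of cytochrome c oxidase, had the highest level per gene length of the 13 genes, at 6735 ± 944 FPKM (mean ± SD, n = 3). It was followed by the other core subunits of complex IV, mt-Co3 at 3391 ± 534 and mt-Co2 at 2777 ± 394 FPKM. Next stood mt-Nd1 of complex I at 1275 ± 240 FPKM. Then came mt-Cytb at 728 ± 137, mt-Nd4 at 657 ± 124, mt-Atp6 at 603 ± 85.1, mt-Atp8 at 548 ± 131 and mt-Nd2 at 433 ± 88.8 FPKM. At the low end stood mt-Nd5 at 371 ± 78.5, mt-Nd3 at 248 ± 70.6, mt-Nd6 at 217 ± 41.1 and mt-Nd4l at 149.9 ± 31.9 FPKM. Of the 12 pairs of neighbours in this order, 9 overlapped between libraries, so the order is firm only in its outline. These levels also leave out reads given to the chromosome 1 copies. In total RNA the copy Gm10925 held 43.0% to 58.4% of the mt-Atp6 count, while mt-Cytb has no copy, so the places of genes with a copy are uncertain. The highest mean FPKM was 44.9 times the lowest in WT total RNA and 52.2 times in KO total RNA. In polysome RNA it was 63.4 times in WT and 77.9 times in KO, and in monosome RNA 204 and 196 times. In all 6 groups mt-Co1 was the highest and mt-Nd4l the lowest. Since mt-Nd4l shares its mRNA with mt-Nd4, and mt-Atp8 with mt-Atp6, these levels and folds are of genes and not of separate mRNAs.

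The share of counts on the 13 genes was higher in monosome RNA than in either other source. In WT total RNA it was 1.65%, 2.10% and 2.19% of the counts of a library, and in KO total RNA 1.60%, 1.77% and 2.02%. In polysome RNA it was 1.48%, 2.08% and 1.77% in WT and 1.47%, 1.82% and 2.04% in KO. In monosome RNA it was 3.69%, 4.91% and 4.27% in WT and 4.14%, 3.39% and 4.15% in KO. Every monosome library stood above every total and polysome library, while total and polysome libraries overlapped.

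**Figure D1:**
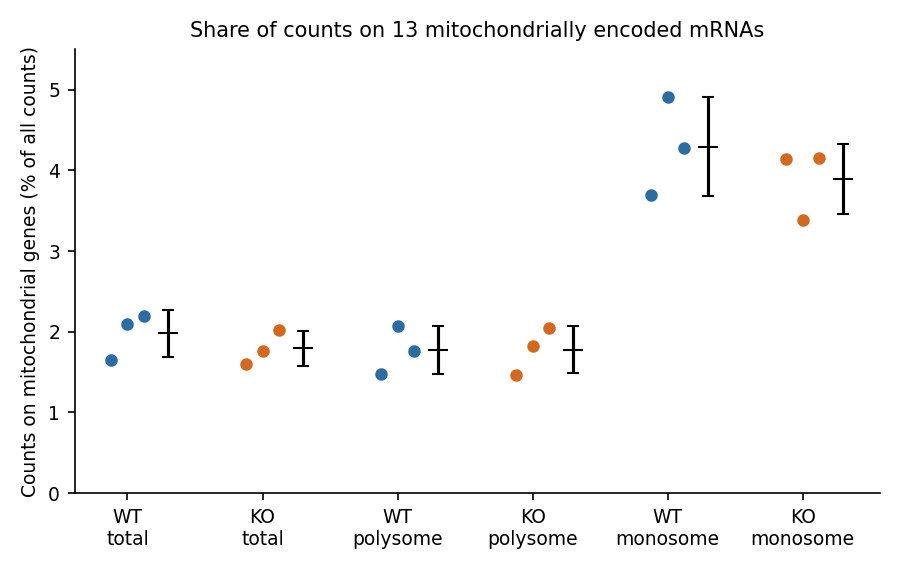
Share of all counts (%) on the 13 mitochondrially encoded genes in each library (points), with the mean and SD of 3 libraries beside each group. The 6 monosome libraries lie between 3.39% and 4.91%, above the 12 others, which lie between 1.47% and 2.19%.

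Over the 6 libraries of each source, the share was 4.09% ± 0.523 in monosome RNA and 1.89% ± 0.249 in total RNA, a difference of 2.21 percentage points (exact two-sided permutation test, p = 0.00217, adjusted p = 0.0065 over 6 tests). That p is the smallest that 924 arrangements of the libraries can give. Polysome RNA, at 1.78% ± 0.263, differed from total RNA by -0.111 points, less than the spread between libraries (exact permutation test, p = 0.452, adjusted p = 0.543). Between the labels the share differed by -0.188 points in total, 0.0021 in polysome and -0.402 in monosome RNA, and the libraries overlapped in each. Leaving out 1 library moved these differences to between -0.353 and -0.083 in total RNA (the ends without WT total replicate 1 and WT total replicate 3), between -0.145 and 0.157 in polysome RNA (without WT polysome replicate 1 and KO polysome replicate 1) and between -0.702 and -0.0924 in monosome RNA (without WT monosome replicate 1 and WT monosome replicate 2), so that in polysome RNA even the sign turned. Fth1, the ferritin heavy chain, moved with the same fractions, with 1480227 to 2332323 counts per monosome library against 251389 to 477343 per library elsewhere. With its counts left out of the total, the mitochondrial share was 4.08% to 5.91% for monosome RNA and 1.4983% to 2.27% for the 12 other libraries.

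Gene by gene, most mitochondrial mRNAs were more abundant in monosome RNA than in total RNA, and the genes at the front of the shared mRNAs stood apart from the rest. In WT, mt-Nd1, a core membrane subunit of complex I, stood at 780.6, 974.3 and 1138 scaled CPM in total RNA and 7985, 9343 and 9340 in monosome RNA. For mt-Nd6, the complex I subunit encoded on the opposite strand to the other 12 genes, the values were 71.1, 91.3 and 104 in total RNA and 536, 519 and 508 in monosome RNA. For mt-Co1 they were 6938, 8920 and 8804 in total RNA and 26620, 35860 and 27700 in monosome RNA. In each of these genes the groups did not overlap. By contrast, mt-Atp8, a small membrane subunit of the ATP synthase, stood at 65.2, 94.3 and 106 in total RNA and 60.04, 102 and 106 in monosome RNA. The values of mt-Nd4l, a small membrane subunit of complex I, were 27.2, 41.5 and 36.9 in total RNA and 23.8, 35.4 and 26.0 in monosome RNA. Both of these genes overlapped between the sources.

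By edgeR's quasi-likelihood test with Benjamini-Hochberg adjustment over 12782 genes, 11 of the 13 genes were higher in monosome RNA in WT, where 62.5% of all genes passed in either direction, 31.4% higher and 31% lower. In the KO-labelled libraries 11 of 13 were higher too, where 65.4% passed, 32.4% higher and 33% lower. The 13 genes had a median log2 difference of 1.95 in WT and 2.12 in KO, beside -0.04 and -0.05 over all tested genes. In WT the log2 difference was 3.20 ± 0.16 (SE) for mt-Nd1, a 9.22-fold change with a 95% interval of 7.29 to 11.7 (adjusted p = 1.63e-10). It was 2.55 ± 0.18 for mt-Nd6, 2.36 ± 0.18 for mt-Nd2, 2.31 ± 0.20 for mt-Cytb and 2.25 ± 0.21 for mt-Nd4. The complex IV subunits followed with 1.95 ± 0.19 for mt-Co2, 1.87 ± 0.18 for mt-Co1 and 1.72 ± 0.13 for mt-Co3. The smallest differences that passed were those of mt-Nd5, 1.27 ± 0.19, and mt-Nd3, 1.22 ± 0.18. Neither mt-Atp8 (0.02 ± 0.27, adjusted p = 0.956) nor mt-Nd4l (-0.31 ± 0.24, adjusted p = 0.283) passed, and the 95% interval of the fold was 0.685 to 1.5 for mt-Atp8 and 0.568 to 1.15 for mt-Nd4l.

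**Figure D2:**
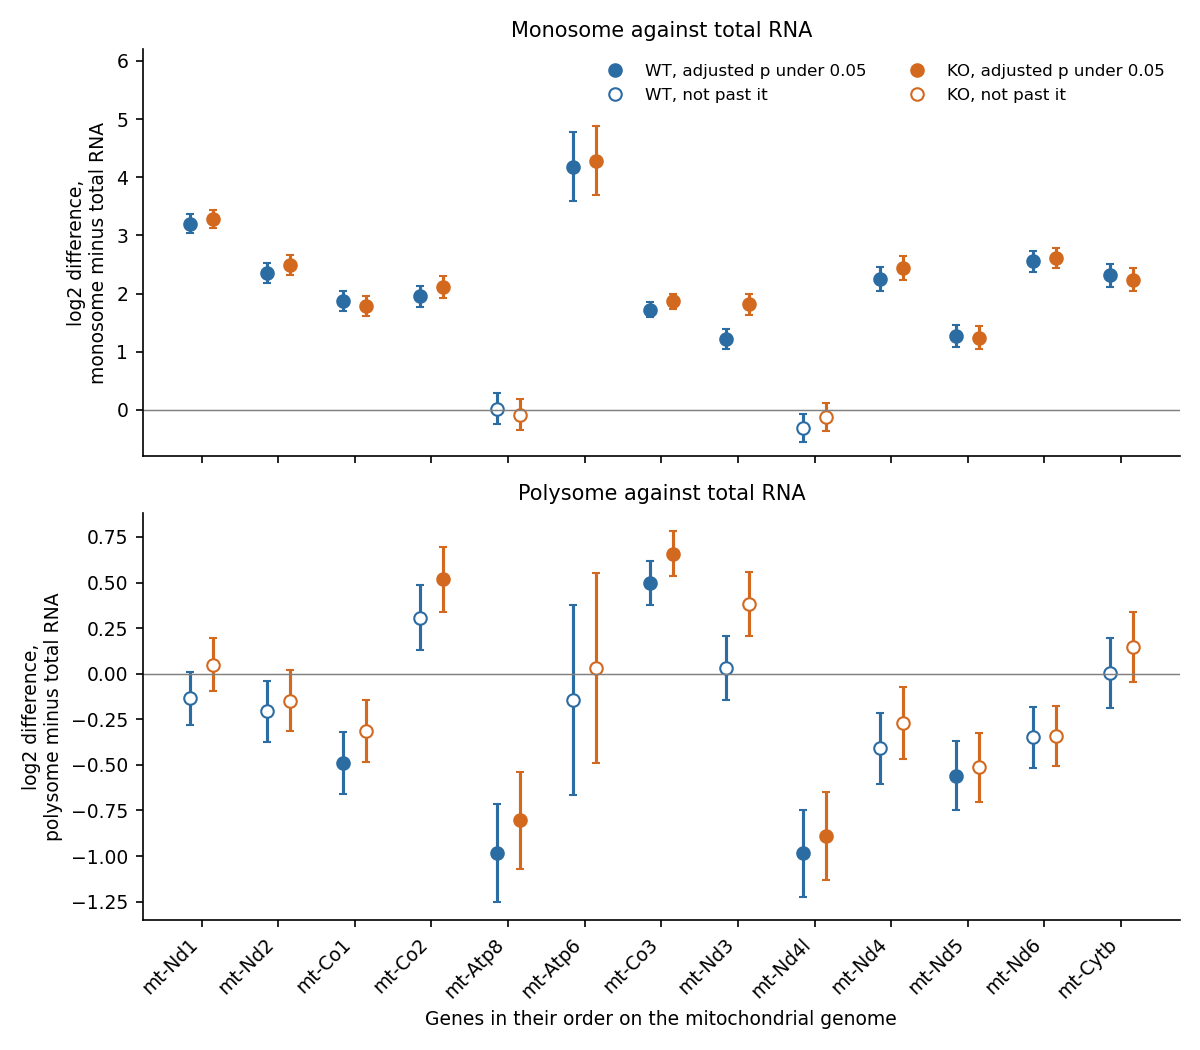
Log2 difference of each gene between monosome and total RNA (upper panel) and between polysome and total RNA (lower panel), in the order of the genes on the mitochondrial genome. Bars are standard errors of the edgeR fit, and filled points have an adjusted p under 0.05; mt-Atp8 and mt-Nd4l lie near 0 in the upper panel, at 0.02 and -0.31 in WT, and are the lowest of the 13 in the lower panel.

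The genes between those ends showed the same separation by library. For mt-Cytb, the catalytic membrane subunit of complex III, the WT values were 518.3, 710.5 and 743.4 scaled CPM in total RNA and 2833, 3674 and 3297 in monosome RNA. For mt-Nd4, a proton-pumping subunit of complex I, they were 564.4, 799.8 and 781.8 against 2983, 3925 and 3314. For mt-Nd5, another proton-pumping subunit, they were 413.2, 628.8 and 559.8 against 1188, 1422 and 1265. In all 3 genes the lowest monosome library lay well above the highest total library. In the KO-labelled libraries mt-Nd1 went from 777.8, 780.7 and 968.9 in total RNA to 8085, 7728 and 8743 in monosome RNA. For mt-Co3, a core subunit of cytochrome c oxidase, the KO values were 1798, 1920 and 1958 against 6812, 6840 and 7034. For mt-Nd4l the KO values were 24.3, 26.8 and 33.4 against 26.7, 25.8 and 25.1, which overlap, as they did in WT.

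The KO-labelled libraries gave the same order at both ends. The log2 difference was 3.28 ± 0.16 for mt-Nd1, 2.61 ± 0.18 for mt-Nd6, 2.49 ± 0.18 for mt-Nd2, 2.44 ± 0.21 for mt-Nd4 and 2.24 ± 0.20 for mt-Cytb. It was 2.12 ± 0.19 for mt-Co2, 1.87 ± 0.13 for mt-Co3, 1.78 ± 0.18 for mt-Co1, 1.81 ± 0.18 for mt-Nd3 and 1.24 ± 0.19 for mt-Nd5. For mt-Nd4l it was -0.12 ± 0.24 (adjusted p = 0.67) and for mt-Atp8 -0.08 ± 0.27 (adjusted p = 0.795). These values depend on how libraries are scaled, since TMM gave monosome libraries factors of 0.605 to 0.664 and all others 1.24 to 1.3. With library size alone the median of all genes moved from -0.04 to -1.04 in WT and the median of the 13 genes from 1.95 to 0.94, while mt-Atp8 and mt-Nd4l became lower in monosome RNA (-0.99 and -1.31 in WT, -1.11 and -1.15 in KO, each past the threshold) and mt-Nd3 and mt-Nd5 no longer passed in WT, nor mt-Nd5 in KO. Ratios within the mitochondrial pool, given below, need no such scaling.

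The gene with the highest fold in monosome RNA was mt-Atp6, the proton-channel subunit of the ATP synthase, and its libraries split. Its WT values were 276.5, 331.1 and 365.5 scaled CPM in total RNA, against monosome values of 1486, 8600 and 7538. Its KO values were 263.8, 282.6 and 344.6 in total RNA, against monosome values of 7715, 1646 and 7930. All 6 monosome libraries were above the total libraries, 2 of them by much less than the other 4. The log2 difference was 4.18 ± 0.59 in WT (adjusted p = 1.47e-05) and 4.28 ± 0.59 in KO (adjusted p = 1.07e-05). Without both low libraries it was 4.63 and 4.72.

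The chromosome 1 copy of mt-Atp6 showed no split of that size, although the same 2 libraries were its lowest in monosome RNA. Gm10925 stood at 820.9 and 898.1 scaled CPM in them, against 999.4 to 1102 in the other 4. Gm10925 had 5004, 7756 and 7403 counts in the WT monosome libraries and 7564, 6894 and 8609 in the KO ones, where mt-Atp6 had 9055, 65272 and 52722, and 58396, 12636 and 61921. As a percentage of the mt-Atp6 count, Gm10925 came to 55.3% and 54.6% in the 2 low libraries and to 11.9%, 14.0%, 12.95% and 13.9% in the other 4. In total RNA the same ratio was 43.0% to 58.4% and in polysome RNA 52.6% to 62.3%, so the 2 low monosome libraries lay within the range of the other sources. The cause of the split was not tested. The log2 difference of Gm10925 between monosome and total RNA was 2.59 ± 0.18 in WT and 2.65 ± 0.18 in KO. With the counts of gene and copy added, mt-Atp6 differed by 3.82 in WT and 3.89 in KO.

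**Figure D3:**
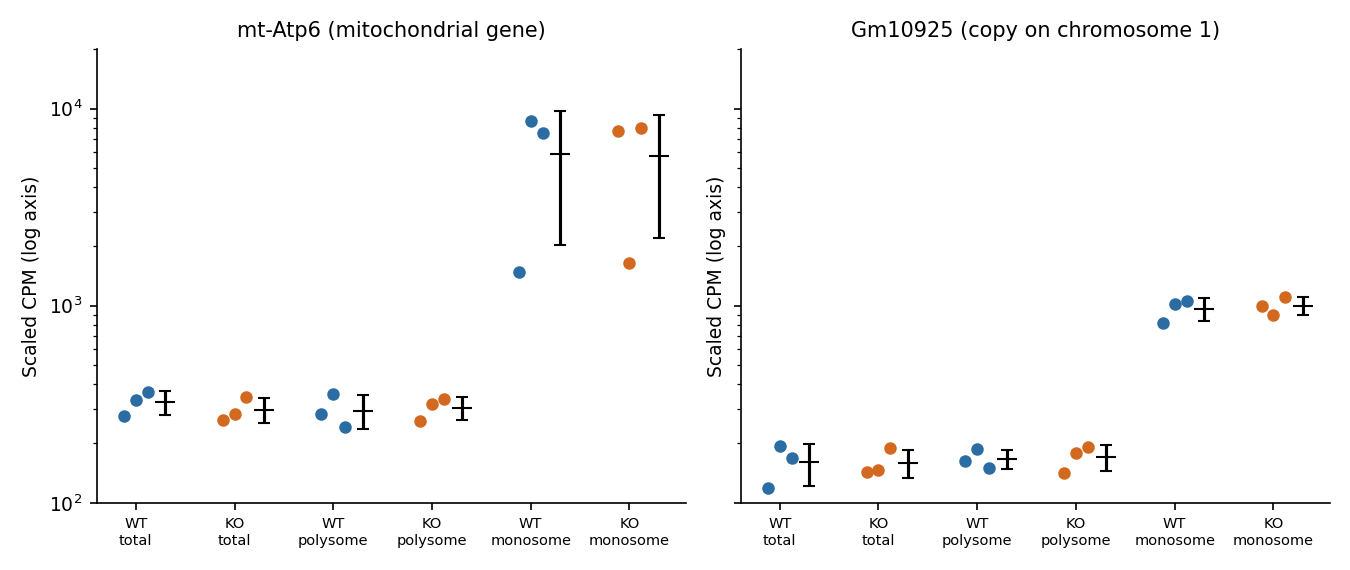
Scaled CPM (log axis) of mt-Atp6 and of its chromosome 1 copy Gm10925 in each library (points), with the mean and SD of 3 libraries beside each group. In monosome RNA mt-Atp6 falls into 4 libraries between 7538 and 8600 and 2 libraries at 1486 and 1646, while Gm10925 stays between 820.9 and 1102.

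Ratios between genes in the same library need no scaling, and the pairs below were chosen after the counts were seen. The first gene of a shared mRNA was lower against the second in polysome RNA than in total RNA, and lower again in monosome RNA. The count of mt-Nd4l was 4.82%, 5.18% and 4.71% of that of mt-Nd4 in WT total RNA and 4.51%, 4.78% and 4.68% in KO total RNA. In polysome RNA it was 3.13%, 3.45% and 3.25% in WT and 2.66%, 3.29% and 3.07% in KO. In monosome RNA it was 0.798%, 0.903% and 0.785% in WT and 0.793%, 0.868% and 0.711% in KO. The 3 sources did not overlap. Over 6 libraries each, the ratio was 4.78% ± 0.224 in total, 3.14% ± 0.269 in polysome and 0.810% ± 0.0677 in monosome RNA, and each pair of sources differed (exact permutation test, p = 0.00217, the smallest possible, adjusted p = 0.00406 over 30 tests).

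The other shared mRNA gave the same direction. The count of mt-Atp8 was 25.1% ± 3.69 of that of mt-Atp6 in total, 14.3% ± 2.65 in polysome and 1.99% ± 1.41 in monosome RNA, with no overlap between sources (exact permutation test, adjusted p = 0.00406 for each pair). Over the 4 monosome libraries without the low ones the ratio was 1.10% ± 0.249. Since mt-Atp6 split in monosome RNA, mt-Atp8 was also set against Gm10925, which differed far less between those libraries. That ratio was 49.4% ± 8.93 in total, 25.0% ± 4.09 in polysome and 7.86% ± 1.70 in monosome RNA, again with no overlap (exact permutation test, adjusted p = 0.00406 for each pair).

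**Figure D4:**
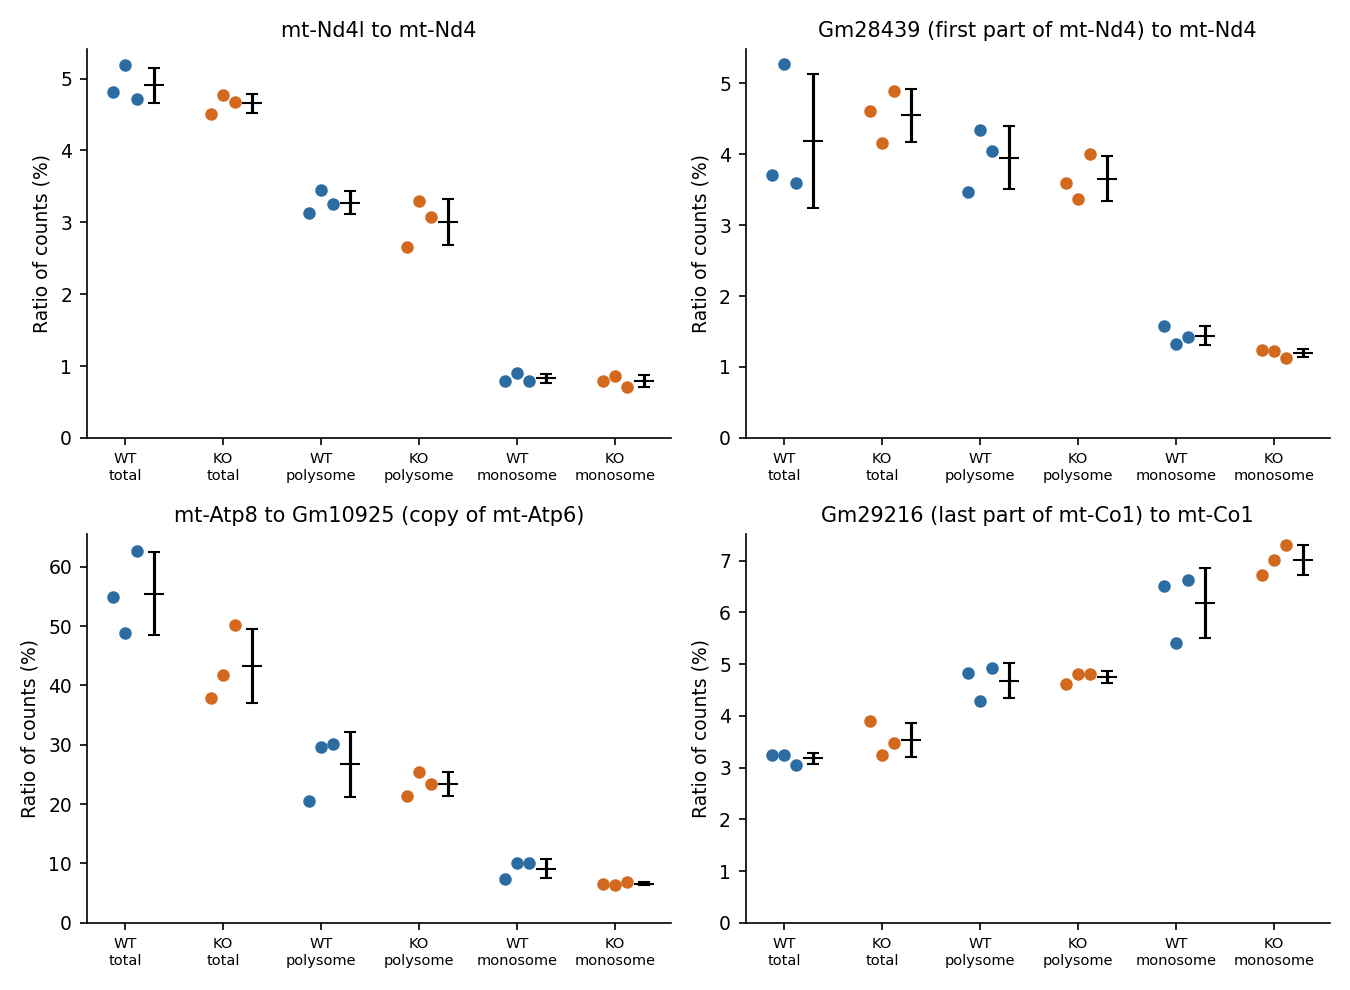
Ratio of counts (%) between genes of 1 shared mRNA, between a chromosome 1 copy and its mitochondrial gene, or between mt-Atp8 and Gm10925, the copy of mt-Atp6. Points are libraries, with the mean and SD of 3 libraries beside each group. The ratios of mt-Nd4l to mt-Nd4, of Gm28439 to mt-Nd4 and of mt-Atp8 to Gm10925 are lowest in monosome RNA (the first at 4.78%, 3.14% and 0.810% in total, polysome and monosome RNA), and that of Gm29216 to mt-Co1 is highest there (3.36%, 4.72% and 6.6%).

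The 2 copies that cover only part of a gene went in opposite directions. Gm28439, which holds the first 876 bases of mt-Nd4, came to 4.37% ± 0.670 of the mt-Nd4 count in total, 3.8% ± 0.381 in polysome and 1.32% ± 0.163 in monosome RNA. Monosome RNA was below the other sources (exact permutation test, adjusted p = 0.00406 for both), while polysome and total RNA overlapped (adjusted p = 0.12). Gm29216, which holds the last 483 bases of mt-Co1, was higher instead, with 3.36% ± 0.298 of the mt-Co1 count in total, 4.72% ± 0.231 in polysome and 6.6% ± 0.649 in monosome RNA (exact permutation test, adjusted p = 0.00406 for each pair). Coverage along the RNAs was not analysed here.

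Of the 5 copies that span nearly a whole gene, Gm10925 split against mt-Atp6 as given above: over the 4 monosome libraries without the low ones it came to 13.2% ± 1.0 of mt-Atp6, and over all 6 to 27.1% ± 21.6, against 51.4% ± 5.82 in total RNA (exact permutation test over all 6, adjusted p = 0.0595). For the other 4, between total and monosome RNA, the ratio went from 10.5% to 13.1% for Gm28661 against mt-Co2, from 10.3% to 12.5% for Gm28437 against mt-Co3, from 10.01% to 10.11% for Gm28438 against mt-Nd3 and from 10.4% to 14.1% for Gm10222 against mt-Nd4l (exact permutation test, adjusted p = 0.0171, 0.0153, 0.887 and 0.0254). The last rests on 20 to 86 counts of Gm10222 per library. The log2 differences of the copies between monosome and total RNA were close to those of their genes in WT: 2.20 for Gm28661, 2.06 for Gm28437, 1.24 for Gm28438 and 0.08 for Gm10222, the last not past the threshold. For the 2 partial copies they were 2.82 for Gm29216 and 0.68 for Gm28439. None of the 7 copies passed between the labels in any source.

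The composition of the mitochondrial mRNA pool differed between sources. Complex I genes made up 17.3% ± 0.734 of the counts on the 13 genes in total RNA and 24.1% ± 1.65 in monosome RNA, and complex IV genes 76.0% ± 0.963 and 62.7% ± 3.37. Cytochrome b went from 4.13% ± 0.160 to 4.61% ± 0.310. In none of these did the libraries of the 2 sources overlap (exact permutation test, adjusted p = 0.00742 over 24 tests for each). Complex V went from 2.60% ± 0.119 to 8.61% ± 4.43, with single monosome libraries from 2.78% to 11.9% (exact permutation test, adjusted p = 0.00742). That call was lost, at an adjusted p of 0.052, when any 1 of the 6 total libraries was left out. The lowest monosome library (2.775%) still stood above the highest total one (2.755%). With groups of unequal size, arrangements that put the 4 high monosome libraries into the smaller group exceed the observed difference. The loss therefore does not rest on any particular total library. With mt-Atp6 taken out of the pool, complex V, then mt-Atp8 alone, was 0.404 percentage points lower in monosome than in total RNA. Over the 4 monosome libraries without the low ones the shares were 23.3% ± 1.36 for complex I, 4.51% ± 0.261 for complex III, 60.7% ± 1.84 for complex IV and 11.5% ± 0.571 for complex V, none overlapping total RNA.

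Against the sum of the other mitochondrial genes of the same library, 6 genes were higher in monosome than in total RNA and 6 lower. The log2 difference was 1.88 for mt-Atp6, 1.24 for mt-Nd1, 0.47 for mt-Nd6, 0.32 for mt-Nd2, 0.24 for mt-Nd4 and 0.16 for mt-Cytb. It was -0.38 for mt-Co3, -0.57 for mt-Co1, -0.60 for mt-Nd3, -0.88 for mt-Nd5, -2.16 for mt-Atp8 and -2.34 for mt-Nd4l. Each of these 12 passed (exact permutation test over 6 libraries each, adjusted p of 0.00734 to 0.0218 over 78 tests), and mt-Co2 did not (-0.12, adjusted p = 0.211). None of the 12 passed in the exact sign-flip test of same-numbered pairs (adjusted p of 0.0786 to 0.148), which cannot go below an unadjusted p of 0.03125. Without the 2 low monosome libraries mt-Atp6 gave 2.59 and mt-Nd1 1.18, and each of the 13 values kept its sign. Across the 13 genes, the Spearman correlation of gene length with the log2 difference between monosome and total RNA was 0.28 in WT and 0.15 in KO, a description only, since the genes share the same libraries and the same transcripts.

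Polysome RNA differed much less from total RNA, and the genes moved in both directions. The clearest rise was that of mt-Co3, which stood at 1839, 1993 and 2471 scaled CPM in WT total RNA and 2687, 3246 and 2958 in WT polysome RNA. The clearest falls were those of the front genes: mt-Nd4l stood at 13.1, 22.8 and 17.4 in WT polysome RNA and mt-Atp8 at 33.5, 55.3 and 45.4. For all 3 the polysome libraries did not overlap the total ones given above. In WT, 5 of 13 genes passed in edgeR's quasi-likelihood test, beside 33% of all genes (16.5% higher and 16.5% lower), and in KO 4 of 13, beside 31.9% (16% higher and 15.8% lower).

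In WT, mt-Co3 was higher in polysome RNA by 0.50 ± 0.12 on the log2 scale (adjusted p = 0.00567). In WT, mt-Nd4l (-0.98 ± 0.24, adjusted p = 0.00509), mt-Atp8 (-0.98 ± 0.27, adjusted p = 0.0102), mt-Nd5 (-0.56 ± 0.19, adjusted p = 0.0338) and mt-Co1 (-0.49 ± 0.17, adjusted p = 0.0374) were lower. In KO, mt-Co3 (0.66 ± 0.12) and mt-Co2 (0.52 ± 0.18) were higher and mt-Nd4l (-0.89 ± 0.24) and mt-Atp8 (-0.80 ± 0.27) lower, while mt-Nd5 gave -0.51 ± 0.19 (adjusted p = 0.0505). The other genes lay between -0.41 and 0.31 in WT and between -0.34 and 0.38 in KO. The medians of the 13 genes were -0.21 and -0.15, beside -0.02 over all genes in both. The WT count was 3 without WT total replicate 2, WT total replicate 3 or WT polysome replicate 3, and 2 without WT polysome replicate 1. The KO count was 2 without KO total replicate 3 or KO polysome replicate 1. By edgeR, mt-Co2 no longer passed in KO without total replicate 1 (adjusted p = 0.107) or 2 (0.0663), or polysome replicate 2 (0.133) or 3 (0.0673). In WT, mt-Nd6 newly passed without total replicate 1 and mt-Nd4 without polysome replicate 2. In KO, mt-Co1, mt-Nd5 and mt-Nd6 newly passed without polysome replicate 3. The count reached at most 6 in each genotype.

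Within the mitochondrial pool, mt-Co3 (0.81) and mt-Co2 (0.57) were higher in polysome than in total RNA against the sum of the other 12. By the same measure 6 genes were lower, namely mt-Nd4l (-0.87), mt-Atp8 (-0.80), mt-Co1 (-0.62), mt-Nd5 (-0.47), mt-Nd4 (-0.28) and mt-Nd6 (-0.26). Those 8 passed (exact permutation test over 6 libraries each, adjusted p of 0.00734 to 0.0218) and the other 5 did not. None of the 8 passed in the exact sign-flip test of same-numbered pairs (adjusted p = 0.0786 for each). Complex IV subunits moved apart, with mt-Co2 and mt-Co3 on one side and mt-Co1 on the other. Complex I genes together fell by 1.65 percentage points of the pool (exact permutation test, adjusted p = 0.0195).

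Set directly against monosome RNA, all 13 genes were lower in polysome RNA in both genotypes by edgeR's quasi-likelihood test with TMM scaling, of which mt-Nd4l and mt-Atp8 changed sign with library size alone. In these comparisons 55.2% of all genes passed in WT (29% lower) and 58.1% in KO (29.5% lower). The median log2 difference was -2.31 in WT and -2.09 in KO. In WT it ran from -4.32 ± 0.59 for mt-Atp6 and -3.34 ± 0.16 for mt-Nd1 to -1.001 ± 0.27 for mt-Atp8 and -0.68 ± 0.24 for mt-Nd4l. These comparisons use the same monosome and polysome libraries as those above. Without the 2 low monosome libraries mt-Atp6 gave -4.78 in WT and -4.69 in KO. Leaving out 1 library gave 12 to 13 genes in WT and 11 to 13 in KO by edgeR. In WT mt-Nd4l no longer passed without polysome replicate 1 (adjusted p = 0.117), polysome replicate 3 (0.0668) or monosome replicate 2 (0.14). In KO mt-Atp8 no longer passed without polysome replicate 1 (adjusted p = 0.125), monosome replicate 1 (0.0595) or monosome replicate 3 (0.0966), nor mt-Nd4l without polysome replicate 1 (0.0663). With library size alone the sign turned for mt-Nd4l (0.34 in WT and 0.25 in KO) and mt-Atp8 (0.02 and 0.29).

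No mitochondrial gene passed the test between the libraries labelled KO and WT in any source. In edgeR's quasi-likelihood test 0 of 13 passed in any source, beside 0.0156% of all genes in total, 0.0156% in polysome and 0.25% in monosome RNA. At an unadjusted p under 0.05 the count was also 0 of 13 in each of the 3 sources, beside 747, 893 and 1495 genes of all those tested, and both DESeq2 and voom with quality weights called 0 of 13. In total RNA the log2 differences ran from -0.33 ± 0.26 for mt-Atp8 to 0.10 ± 0.17 for mt-Nd6, with 12 of 13 negative and a median of -0.18. In polysome RNA they ran from -0.23 ± 0.24 for mt-Nd4l to 0.11 ± 0.17 for mt-Nd6 (median -0.01). In monosome RNA they ran from -0.44 ± 0.27 for mt-Atp8 to 0.29 ± 0.18 for mt-Nd3 (median -0.06).

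**Figure D5:**
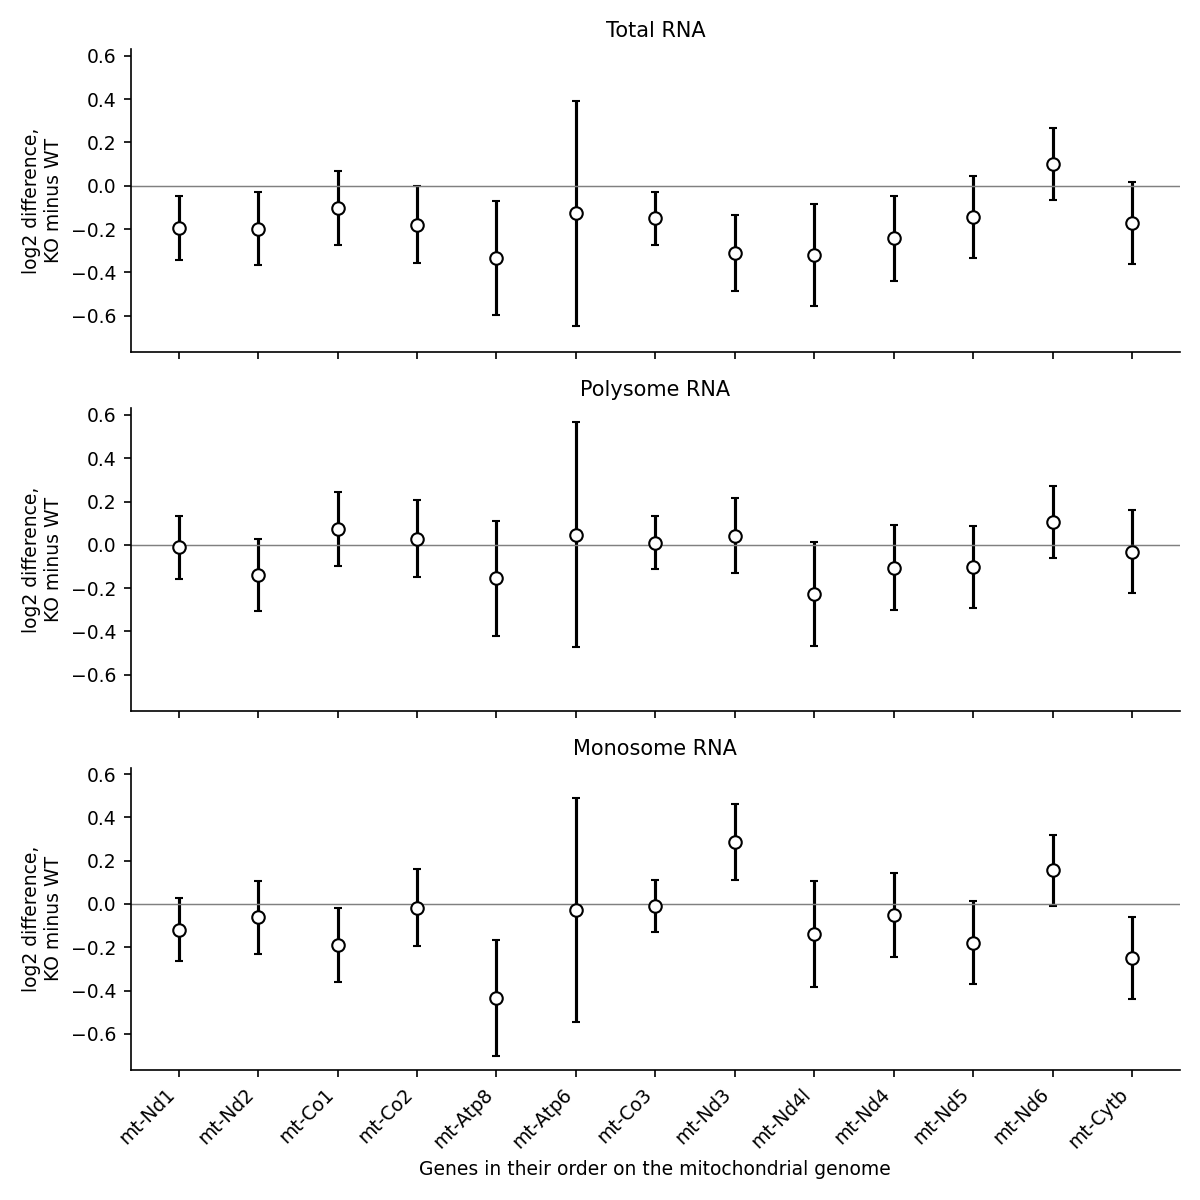
Log2 difference between libraries labelled KO and WT for each gene in total, polysome and monosome RNA (points), with standard errors of the edgeR fit. All 39 values lie between -0.44 and 0.29, and none has an adjusted p under 0.05.

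Library by library the labels overlapped in scaled CPM for every gene and source other than mt-Nd6 in monosome RNA. Of all genes 13.6% had no overlap in total, 14.9% in polysome and 12.5% in monosome RNA. In total RNA mt-Co1 stood at 6938, 8920 and 8804 scaled CPM in WT and 6837, 7519 and 8609 in KO. In polysome RNA mt-Co1 stood at 4900, 6923 and 5760 in WT and 4718, 6195 and 7572 in KO. For mt-Cytb the monosome values were 2833, 3674 and 3297 in WT and 2822, 2503 and 2914 in KO. In each of these 3 cases the libraries of the labels overlapped. For mt-Atp8 the monosome values were 60.04, 102.4 and 106 in WT and 65.9, 57.7 and 74.9 in KO, with the lowest WT library among the KO ones. By the log2 ratio to the other mitochondrial genes, the labels did not overlap for mt-Nd3 (0.40) and mt-Cytb (-0.14) in monosome RNA and mt-Nd6 (0.24) in total RNA. None of these passed (exact permutation test, adjusted p = 0.211 for each), and with 3 libraries against 3 none could. All other genes and sources overlapped by that measure.

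The intervals show what size of difference these libraries leave possible. The 95% interval of the KO to WT fold was 0.752 to 1.08 for mt-Co3, 0.704 to 1.08 for mt-Nd1 and 0.725 to 1.20 for mt-Co1 in total RNA. It was widest for mt-Atp6, from 0.425 to 1.97. The fit takes the spread of a gene over all 18 libraries, so this interval includes the monosome split of mt-Atp6. In total RNA alone its libraries lay close together, at 276.5, 331.1 and 365.5 scaled CPM in WT and 263.8, 282.6 and 344.6 in KO. In total RNA replicate 1 was the lowest library, with library size alone, for 12 of 13 genes in WT and for 13 of 13 in KO. It was the lowest for 11 and 12 of 13 in WT and KO polysome RNA and for 11 in WT monosome RNA. In KO monosome RNA replicate 2 was the lowest for 11 and replicate 1 for 1. The 13 genes thus shift together from library to library and are not independent. In bulk RNA, fewer cells of a type and less RNA per cell cannot be told apart. Summed markers of stromal cells moved with the labels, at 252 to 324 scaled CPM in WT and 333 to 368 in KO total RNA, with all 8 markers detected. They stood at 130 to 169 and 179 to 207 in polysome RNA, and at 270 to 317 and 331 to 361 in monosome RNA. Macrophage markers did not overlap in polysome RNA, at 6733 to 6955 in WT and 7220 to 7882 in KO. In monosome RNA the same held for dendritic cells (6.23 to 6.58 and 7.94 to 9.25) and neutrophils (7.05 to 10.6 and 11.1 to 14.4). The other marker sums overlapped between the labels. The part of all these cells in the values above was not tested.

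In monosome RNA mt-Nd6 had no overlap between the labels, with 536, 519 and 508 scaled CPM in WT and 599, 545 and 596 in KO. Its log2 difference was 0.16 ± 0.17 (edgeR, adjusted p = 0.781). Reads of mt-Nd6 and of RNA from the facing strand cannot be told apart here, since the sources used here do not state the strand setting, and its last 14 bases overlap the end of mt-Nd5.

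The distribution between fractions did not pass a test between genotypes either. For the monosome-to-total ratio 0 of 13 genes passed (0.0548% of all genes), and mt-Nd3, a membrane subunit of complex I, had the smallest p: its ratio was 1.51-fold higher in KO, with a log2 difference of 0.60 ± 0.25 and a 95% interval of 1.05 to 2.18 (edgeR, unadjusted p = 0.0295, adjusted p = 0.927). For mt-Nd3 the libraries of the 4 groups were 65.8, 50.1 and 89.0 in WT total RNA, 50.5, 55.0 and 59.8 in KO total RNA, 137, 186 and 154 in WT monosome RNA and 174, 183 and 225 in KO monosome RNA. The labels overlapped in both sources. For the polysome-to-total ratio 0 of 13 passed, beside 0% of all genes; the 13 differences ran from 0.01 to 0.35 with a median of 0.16, and they share the total libraries, in which 12 of 13 were negative.

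Nuclear genes that serve the mitochondrial genome moved in both directions between fractions, and 0 members passed between the labels, in any source or ratio. Their counts between monosome and total RNA stand beside 62.5% of all genes called in WT (31.4% higher and 31% lower) and 65.4% in KO (32.4% higher and 33% lower). Of 14 tested genes of mitochondrial transcription and DNA maintenance, 4 were higher and 3 lower in WT monosome than in total RNA, and 6 and 2 in KO, a smaller share than that of all genes. The transcription termination factors Mterf1a (2.02 ± 0.23 in WT) and Mterf1b (1.01 ± 0.27), the elongation factor Tefm (1.13 ± 0.21) and the initiation factor Tfb2m (0.95 ± 0.20) were higher, and Polrmt, the mitochondrial RNA polymerase (-0.74 ± 0.17), Top1mt (-0.78 ± 0.25) and Mgme1 (-0.90 ± 0.27) lower. In KO the same 4 were higher, with Tfb1m (0.59 ± 0.22) and Mterf4 (0.47 ± 0.16), and Polrmt (-0.83 ± 0.17) and the DNA polymerase Polg (-0.86 ± 0.32) lower. In polysome against total RNA Mterf3 (-0.34), Ssbp1 (-0.35) and Polrmt (-0.43) were lower in WT, and Polg2 (0.68) was higher in KO.

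Of 22 tested genes of mitochondrial RNA processing and decay, 11 were higher and 6 lower in WT monosome RNA, beside 62.5% of all genes called, and 11 and 7 in KO, beside 65.4%. Slirp and Lrpprc, whose proteins form a complex that stabilises mitochondrial mRNAs, went in opposite directions: Slirp by 2.54 ± 0.48 in WT and 2.32 ± 0.47 in KO, and Lrpprc by -1.14 ± 0.25 and -1.48 ± 0.25. The other higher genes in WT were Ptcd1, Hsd17b10, Trnt1, Ptcd2, Rexo2, Trmt10c, Mtpap, Fastkd3, Pde12 and Tbrg4, from 0.996 for Ptcd1 to 0.40 for Tbrg4. The other lower genes in WT were Angel2, Fastkd1, Fastkd5, Supv3l1 and Elac2, the last, a transfer RNA endonuclease, at -1.31 ± 0.27. In KO the list differed by Fastkd2 (0.34) in place of Tbrg4 and by Ptcd3 (-0.55) among the lower ones. In polysome RNA Fastk, Tbrg4 and Fastkd2 were higher in both genotypes (0.63, 0.47 and 0.40 in WT), Lrpprc lower in both (-0.79 in WT), Elac2 lower in WT (-0.78) and Fastkd1 in KO (-0.39).

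Of 12 mitochondrial translation factors, 4 were higher and 2 lower in WT monosome RNA, beside 62.5% of all genes called, and 3 and 2 in KO, beside 65.4%. The ribosome recycling factor Mrrf (1.10 ± 0.14), the release factor Mtrf1l (1.03 ± 0.15), Guf1 (0.94 ± 0.16) and Gfm2 (0.29 ± 0.10) were higher in WT, and the elongation factor Gfm1 (-0.61 ± 0.14) and Taco1 (-0.66 ± 0.17), an activator of mt-Co1 translation, lower. In polysome RNA Gfm1 (-0.95), Taco1 (-0.68) and Mtif2 (-0.53) were lower and Tsfm (0.49) higher in WT. In KO, Mrrf, Guf1 and Mtrf1l were higher and Taco1 and Gfm1 lower in monosome RNA, and the polysome values were -0.79 for Gfm1, -0.75 for Taco1 and 0.43 for Tsfm.

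Nuclear RNAs that are not translated, or hardly, were set beside the mitochondrial mRNAs. Of 9 tested, 5 were higher and 3 lower in WT monosome RNA, beside 62.5% of all genes called, and 5 and 2 in KO, beside 65.4%. The median log2 difference of the 9 was 1.48 in WT and 1.99 in KO, beside -0.04 and -0.05 over all genes. Rpph1, the RNA of ribonuclease P, differed by 6.44 ± 0.44 in WT and 5.91 ± 0.40 in KO, from a mean of 0.559 to 49.6 scaled CPM in WT. At that level in WT total RNA depth limits this value, and also that of Rpph1 in polysome against total RNA below. Rmrp, the RNA of ribonuclease MRP, differed by 3.98 ± 0.36 and 5.03 ± 0.36, Snhg1 by 1.90 and 2.09, the small nucleolar host Gas5 by 1.82 and 1.99 and Mir17hg by 1.48 and 2.13. The nuclear-retained RNAs Malat1 (-1.19 in WT and -1.12 in KO) and Neat1 (-0.53 and -0.85) were lower. Meg3 also passed as lower in WT, from a mean of 0.738 to 0.109 scaled CPM, a level at which depth limits the value. In polysome against total RNA Rpph1 was higher (2.53) and Rmrp lower (-2.23) in WT, and Snhg1 (0.75) and Gas5 (0.40) were higher in KO.

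Between the labels, the smallest unadjusted p among these nuclear genes in monosome RNA was that of Tfam, which packages mitochondrial DNA and helps start its transcription (log2 difference -0.26 ± 0.08, edgeR adjusted p = 0.206). Fastkd5, of mitochondrial RNA processing, gave -0.79 ± 0.27 (edgeR adjusted p = 0.262) and Top1mt, the mitochondrial DNA topoisomerase, 0.65 ± 0.27 (edgeR adjusted p = 0.367). In polysome and total RNA Top1mt gave 0.50 ± 0.18 and 0.37 ± 0.19 (edgeR adjusted p = 0.571 and 0.896). None of these differences passed the threshold.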

How the data were processed

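The authors deposited 1 table with raw counts per gene for 18 libraries and, beside them, FPKM values. Per the submitters' processing notes, fastp 0.23.2, HISAT2 2.0.4 and StringTie 1.3.0 were used; their roles, the genome build and the strand setting are not given in the sources used here. Per the labels, a SMARTer mRNA kit made the libraries. The deposited FPKM equal the counts divided by gene length and column total, within 0.07% for the 9535 genes whose mean count was 50 or more, and serve only for levels between genes. All columns were mapped to samples (0 left over).

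The count test used edgeR 4.0.16 in R 4.3.3. It took the 12782 genes that filterByExpr kept over the 6 groups, TMM scaling, a mean for each group and two-sided quasi-likelihood F tests whose prior degrees of freedom were 3.41. Adjustment was by Benjamini-Hochberg across every gene tested, at 0.05. Shares and ratios of counts were compared by exact permutation tests over libraries in scipy 1.17.1 (Python 3.11.15), adjusted within each family; 3 libraries against 3 cannot go below p = 0.1. Replicates of a group differed by more than counting noise (chi-square per degree of freedom 13.2 to 43.9), so none were merged. Same-numbered libraries correlated by -0.089 to 0.189 in their deviations over all pairs of groups. Between total and polysome RNA they correlated by 0.048 to 0.115 in WT and 0.077 to 0.189 in KO. Differently numbered libraries there gave -0.106 to 0.039 and -0.204 to 0.062. The main tests did not pair libraries by number, so they leave out any replicate effect, and a replicate block was run as an alternative. Alternatives were RLE factors, library size only, scaling without mitochondrial genes and Fth1, no filter, a filter at 5 CPM, only the groups compared, a replicate block, voom with quality weights (limma 3.58.1), DESeq2 1.42.0, leaving out each library, and, chosen after seeing the data, counts of chromosome 1 copies added, both libraries of low mt-Atp6 left out (for shares and ratios with no test, since they were picked by their values), and mt-Atp6 left out of the pool. Named genes are all 13 mitochondrial genes, all copies and, of the nuclear lists, members past the threshold and up to 3 of smallest p. Gm10222 was added by position. The genes and lists were chosen with earlier results of these data known. The test was checked on simulated data. Figures were drawn with matplotlib 3.10.9.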

Additional observations from a re-analysis of the deposited data

How the results depend on the processing

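The rarest of the 13 genes had 145 counts in its poorest library, while Gm10222 had 20 to 86 counts and Meg3 a mean of 0.109 scaled CPM in WT monosome RNA, where depth limits the value. With library size only, the median log2 difference of the 13 genes was 0.94 in WT and 1.09 in KO for monosome against total RNA, and -1.29 (WT) and -1.07 (KO) for polysome against monosome; mt-Atp8 turned to -0.99 in WT monosome against total RNA, and in polysome against monosome RNA mt-Atp8 turned to 0.02 and 0.29 and mt-Nd4l to 0.34 and 0.25 in WT and KO. Near 0, mt-Atp8 in WT monosome against total RNA also changed sign with no filter (-0.04) and DESeq2 (-0.00), in KO with voom (0.01) and without both libraries of low mt-Atp6 (0.01), and mt-Cytb in WT polysome against total RNA with the 5 CPM filter and the replicate block (-0.00 in both). For polysome against total RNA in KO, voom called 7 genes.

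Leaving out 1 library at a time gave 2 to 6 genes for polysome against total RNA in both WT and KO and 12 to 13 (WT) and 11 to 13 (KO) for polysome against monosome RNA, with the libraries behind the changes named beside those counts above. Log2 differences that changed sign ran from -0.04 to 0.23 (total RNA) and -0.07 to 0.23 (polysome RNA) for mt-Nd6 between labels. For monosome against total RNA they ran from -0.16 to 0.23 for mt-Atp8 in WT, and in KO from -0.24 to 0.20 for mt-Atp8 and -0.21 to 0.01 for mt-Nd4l. For polysome against total RNA they ran from -0.27 to 0.0 for mt-Nd1, -0.15 to 0.27 for mt-Nd3 and -0.14 to 0.18 for mt-Cytb in WT, and in KO from -0.04 to 0.16 for mt-Nd1, -0.05 to 0.15 for mt-Atp6 and -0.02 to 0.30 for mt-Cytb. Shares of the pool ran from 0.356 to 0.587 points (complex III, polysome against total), -0.118 to 0.114 (complex III, polysome against monosome), 5.35 to 7.18 (complex V, monosome against total) and -7.35 to -5.52 (complex V, polysome against monosome). Of 88 values of single genes, the alternatives left the call and sign as they were in 1392 cases; in 16 a value newly passed, in 35 it no longer passed and in 33 its sign turned. The cause of these changes was not tested.

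With a replicate block the counts of genes past the threshold were 0 in each comparison between labels. In both WT and KO they were 11 (monosome against total), 5 (polysome against total) and 13 (polysome against monosome). The exact sign-flip test of same-numbered pairs, which cannot go below p = 0.03125, left the share differences of 2.21 and -2.32 points at an adjusted p of 0.0938. It left those within the pool at 0.075: complex I 6.82, -1.65 and -8.47, complex III 0.474, complex IV -13.3 and 14.7, complex V 6.01 and -6.19. Adjusted together with the tests between labels, it could not have passed at 0.05 for either, whatever the values. For the ratios of mt-Nd4l to mt-Nd4 and of mt-Atp8 to mt-Atp6 it gave an adjusted p of 0.0493 between each pair of sources. Some of the other ratios did not pass in it. Without mt-Atp6 in the pool complex V gave -0.404 (monosome against total), -0.227 (polysome against total) and 0.177 (polysome against monosome RNA), and complex III -0.327 for the last. Without both monosome libraries of low mt-Atp6, complex V gave 8.86 (monosome against total) and -9.03 (polysome against monosome). An alternative without the ribosomal RNAs was not run, since none is among the 13 genes.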
